A study of Mus musculus with 24 samples.

Results

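In an inflammatory supernatant, 2 epithelial cell lines of the mouse upper reproductive tract were set against bone marrow derived macrophages, in 12 of the series' 24 samples. The samples were taken by label: every sample given the supernatant, 4 of C57epi.1, 4 of Bm12.4 and 4 of macrophages. C57epi.1 is a line from C57BL/6 mice. Bm12.4 came from that tissue too, in mice of the strain B6(C)-H2-Ab1bm12/KhEgJ, which carry a mutated beta chain of the class II molecule. The macrophages derived from femur marrow of C57BL/6 mice cultured in GM-CSF, a culture that can also hold dendritic-like cells. The supernatant was RPMI medium in which CD4 T cells of a clone specific for Chlamydia had been held on an infected epithelial monolayer, used at 33% (v/v) and brought to 4 ng/ml interferon-gamma. Total RNA was measured on whole-transcript arrays as log2 levels. Each epithelial line is 1 line, and the labels do not say that the 4 replicates were separate cultures, so the p-values measure the spread between these samples. The other 12 samples, the same cells in RPMI medium alone, enter only where a difference in supernatant is set against that in media.

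Interferon-gamma made by CD4 T cells acts through JAK kinases and STAT factors on almost every cell type. It induces immunity-related GTPases, which attack the vacuoles of intracellular bacteria such as Chlamydia, as well as chemokines, peptide loading onto MHC class I and, through the transactivator CIITA, MHC class II. Macrophages are professional phagocytes that carry class II and costimulatory molecules at rest, whereas epithelial cells of the reproductive tract are the cells in which Chlamydia grows and acquire class II under interferon-gamma.

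The arrays of a group resembled each other closely. Over 19938 genes, Pearson correlations ran from 0.9925 to 0.9975 within C57epi.1, from 0.9866 to 0.9964 within Bm12.4 and from 0.9915 to 0.9965 within macrophages. C57epi.1 arrays correlated with macrophage arrays at 0.8298 to 0.8412 and Bm12.4 arrays at 0.8329 to 0.8452, while the lines correlated with each other at 0.9358 to 0.9544. The first principal component (75.3% of the variance) parted both lines from macrophages, and the second (19.5%) parted the lines. Replicate 1 of Bm12.4 stood somewhat apart from its group, at 43.99 on the second component against 54.71 to 61.55 for the other Bm12.4 arrays, and the main class II values are given below with and without it. Markers of other cell types were mostly dim everywhere. The 3 CD3 genes among 17 measured T cell markers averaged between 3.27 and 4.78 in all 3 groups, and the median level of the T cell list was 3.9 to 3.97 on C57epi.1 arrays, 3.8 to 3.94 on Bm12.4 arrays and 4.12 to 4.27 on macrophage arrays. The median level of 16 dendritic cell markers was 3.98 to 4.29 in C57epi.1, 4.11 to 4.36 in Bm12.4 and 5.3 to 5.52 in macrophages, with Ccr7 (9.15 ± 0.83), Clec9a (7.14 ± 0.31) and Ccl22 (9.19 ± 1.38) leading in macrophages (SD, n = 4) and Flt3 at 4.56 there. The part of such cells in the differences below was not tested, and fewer cells of a type cannot be told apart from less RNA per cell.

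A gene was called where its adjusted p in limma was under 0.05 and its difference at least 2-fold. The mean of both lines differed from macrophages by this rule at 4180 of 19938 genes, 21.0% of those tested, with 2157 higher (10.8%) and 2023 lower (10.1%) in the lines. C57epi.1 alone differed from macrophages at 4573 genes (22.9%) and Bm12.4 at 4099 (20.6%). These comparisons share the 4 macrophage arrays, so their values are given side by side and their likeness was not measured. The lines differed from each other at 2018 genes (10.1%). The median difference from macrophages over all genes was -0.03 on the log2 scale. Counts of gene list members below are to be read against the 21.0% called over all genes. No marker of other leukocytes or endothelium was called higher in the mean of the lines, and in Bm12.4 alone the endothelial marker Tek (named after its values were seen) was higher, at 5.23 in Bm12.4, against 3.68 in macrophages. Called lower in the mean of the lines were 2 of 17 T cell markers (Il7r and Lat), 1 of 11 B cell markers (Cd22) and 7 of 16 dendritic cell markers. So were 5 of 20 neutrophil and mast cell markers and 3 of 13 endothelial markers.

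Among 38 measured genes of macrophage and leukocyte identity, 37 were lower in the lines and none was higher, with a median difference of -6.13. The median level of the list was 4.17 to 4.42 on C57epi.1 arrays and 4.27 to 4.36 on Bm12.4 arrays, against 10.82 to 11.04 on macrophage arrays. Cybb, the membrane subunit of the phagocyte oxidase, was the gene with the largest difference. It stood at 3.44, 3.31, 3.27 and 3.24 on the C57epi.1 arrays and 3.83, 3.87, 3.7 and 3.53 on the Bm12.4 arrays, against 13.56, 13.6, 13.61 and 13.56 on the macrophage arrays. All 8 line arrays were near background and far below all 4 macrophage arrays, a difference of -10.06 ± 0.0743 (SE). Cybb was picked for the size of this difference and for arrays that do not overlap, so no test is given for it. At levels this dim a probe cannot be told from background, so such folds describe the array scale.

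Other leading genes of the macrophages were Clec4n (-10.01), which encodes the fungal receptor dectin-2, the macrophage elastase Mmp12 (-9.72), the protease Ctsc (-9.64), lysozyme M Lyz2 (-9.62) and the scavenger receptor Cd36 (-9.59), each a difference of both lines from macrophages. Spi1, which encodes the myeloid factor PU.1, was picked after its values were seen. It averaged 3.85 ± 0.09 in C57epi.1 and 3.96 ± 0.1 in Bm12.4, against 11.51 ± 0.17 in macrophages (SD, n = 4 each). Csf1r, the M-CSF receptor, averaged 4.38 ± 0.09 and 4.54 ± 0.09 in C57epi.1 and Bm12.4, against 11.93 ± 0.05 in macrophages. The pan-leukocyte gene Ptprc (CD45) differed by -7.46 in C57epi.1 and by -7.32 in Bm12.4. Neither line therefore carried the defining leukocyte markers above the dim end. Cd68, a lysosomal glycoprotein found in more cell types, was lower but not dim in the lines, at 6.97 ± 0.95 in C57epi.1 and 6.76 ± 0.28 in Bm12.4, against 13.32 ± 0.13 in macrophages.

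**Figure D1:**
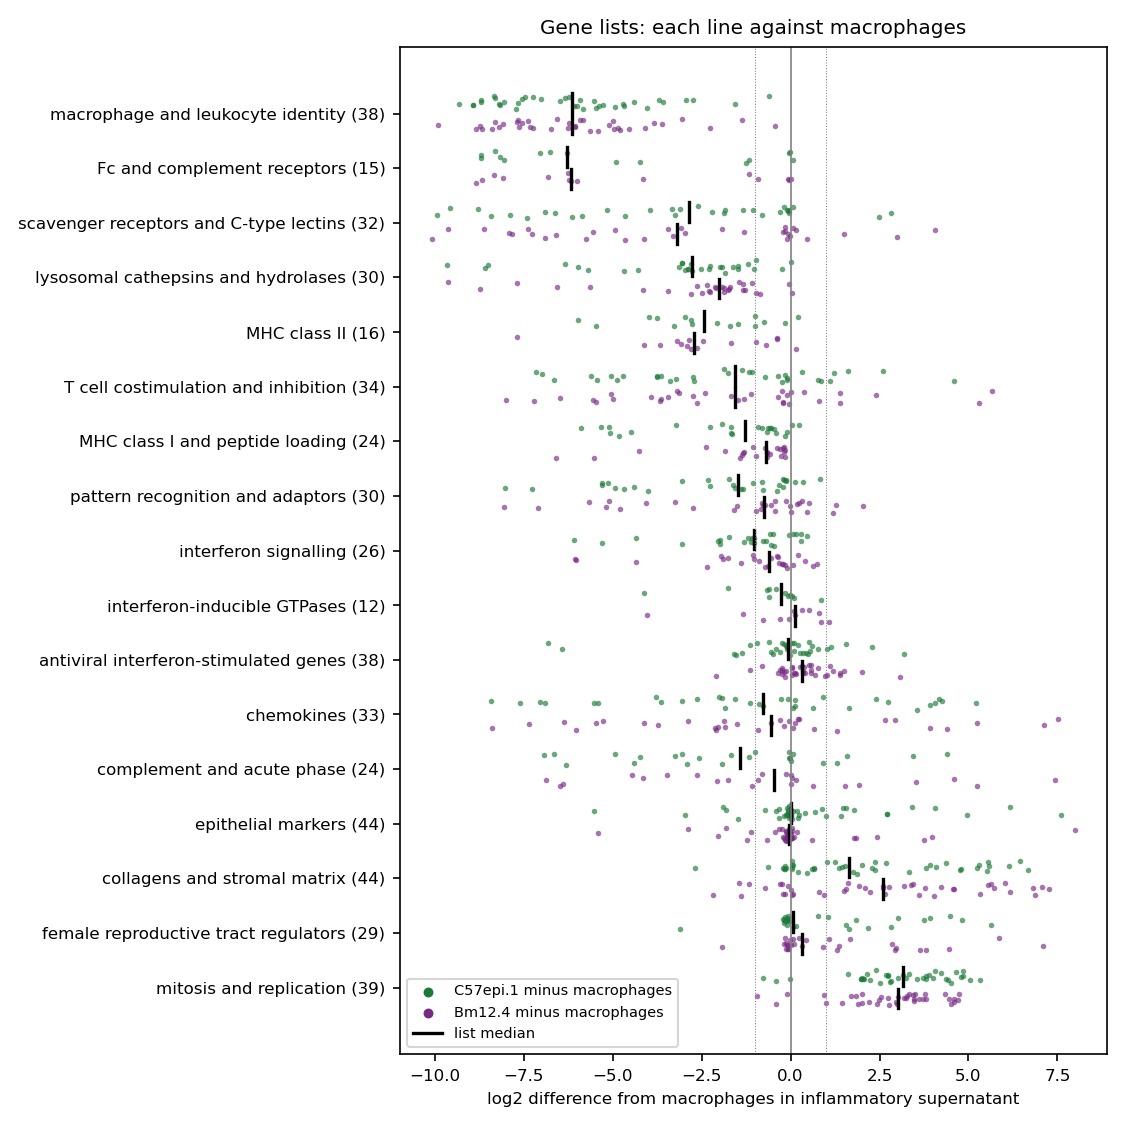
Each point is 1 gene of a list, placed at its log2 difference from macrophages in inflammatory supernatant, for C57epi.1 (green) and Bm12.4 (purple); black bars are list medians, dotted lines mark 2-fold and the number of measured genes is in brackets. Macrophage identity and Fc receptor genes lie far to the left in both lines, collagens and mitotic genes to the right, and the interferon-inducible GTPases around 0.

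Many genes by which macrophages take up particles were lower in the lines, most often among Fc and complement receptors. Of 15 Fc and complement receptors 12 were lower and none higher (median -6.25), led by the integrin Itgam, the Fc receptor gamma chain Fcer1g (-8.69) and the anaphylatoxin receptor C3ar1 (-8.25). Itgam stood at 3.73, 3.48, 3.59 and 3.5 in C57epi.1 and 3.45, 3.54, 3.17 and 3.55 in Bm12.4, against 12.25, 12.32, 12.23 and 12.32 in macrophages. Of 32 scavenger receptors and C-type lectins 20 were lower, 2 higher and 10 not called. The 2 higher genes were the ferritin receptor Scara5 (3.28) and the collagen receptor Mrc2 (2.9). Of 12 oxidase genes 5 were lower, among them the cytosolic subunits Ncf1 (-6.93) and Ncf4 (-6.1). Cyba, the partner chain of Cybb in the membrane (named after its values were seen), kept an intermediate level in C57epi.1 and not in Bm12.4, at 8.62 ± 0.11 and 5.49 ± 0.33, against 12.99 ± 0.09 in macrophages. The other 7 oxidase list members were not called. Restricted to the 12010 genes above the dim floor in at least 1 group, the oxidase list's median was -6.02, against -0.13 over all its members. That filter kept a gene by its brightest group, so genes bright in macrophages alone stayed and genes dim everywhere dropped out. The filter itself thus moves the median, and -6.02 is no further support for a difference.

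Lysosomal cathepsins and hydrolases were lower in the lines, though most were well above the dim end there. Of 30 genes 27 were lower and none higher, with medians of -2.78 (C57epi.1) and -2.01 (Bm12.4). The median level of the list was 8.71 to 9.55 on C57epi.1 arrays and 9.43 to 9.92 on Bm12.4 arrays, against 12.11 to 12.3 on macrophage arrays. Cathepsin D (Ctsd, named after its values were seen) averaged 10.76 ± 0.37 and 12.08 ± 0.36 in C57epi.1 and Bm12.4, against 13.8 ± 0.07 in macrophages. Atp6v0d2, a subunit of the proton pump found in macrophages and osteoclasts, was dim in both lines (-8.65), as was Ctsc of the same list.

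Among genes higher in the lines, Krt19, an intermediate filament of simple epithelium, had the largest difference. It stood at 10.9, 11.93, 11.99 and 12.14 in C57epi.1 and 12.49, 12.16, 11.89 and 11.94 in Bm12.4, against 4.06, 3.75, 4.02 and 4.69 in macrophages. No line array came near a macrophage array, a difference of 7.8 ± 0.218 (SE). Krt19 was picked in the same way as Cybb, so no test is given for it. The matricellular protein Sparc (6.87), the procollagen processing enhancer Pcolce (6.64), the membrane protein Tm4sf1 (6.57), the guidance factor Sema3c (6.55), the aggrecanase Adamts5 (6.41), the collagen receptor Ddr2 (6.26) and decorin Dcn (6.26) followed.

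Of 44 collagens and stromal matrix genes 31 were higher in the mean of the lines and 2 lower (75.0% called, median 1.98). C57epi.1 alone had 27 higher and 1 lower (median 1.65), and Bm12.4 had 29 higher and 4 lower (median 2.61). Many of the 44 also differed between the lines, with 11 higher and 15 lower in C57epi.1 than in Bm12.4. Over all genes those shares were 4.59% and 5.53%. Col1a1, which encodes a type I collagen chain, averaged 11.88 ± 0.1 in C57epi.1 and 12.77 ± 0.13 in Bm12.4, against 6.59 ± 0.17 in macrophages. Its partner chain Col1a2 parted the lines, at 11.84 ± 0.13 in C57epi.1 and 5.68 ± 0.24 in Bm12.4, against 7.07 ± 0.28 in macrophages. The collagen cross-linking enzyme Lox did the same, at 10.16 ± 0.29 and 4.1 ± 0.15 in C57epi.1 and Bm12.4, against 5.35 ± 0.44 in macrophages. These 3 genes were named after their values were seen. For Col1a2 and Lox the difference between the lines was 6.17 and 6.06, and Bm12.4 was lower than macrophages in both, by -1.39 and -1.25. They were picked with the difference between the lines known, so no test is given for it. The 2 stromal genes lower in the lines were the transcription factor Zeb2 (-1.92), also known in macrophages, and the matrix glycoprotein Thbs1 (-1.41).

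The label of epithelial lines was checked against 44 measured epithelial markers. Only 8 were higher in the mean of the lines, 5 were lower and 31 were not called (29.5% called, median 0.03). C57epi.1 alone had 12 higher and 5 lower, and Bm12.4 had 6 higher and 6 lower. Between the lines, 7 were higher and 2 lower in C57epi.1. The median level of the list was 4.84 to 5 on C57epi.1 arrays and 4.45 to 4.6 on Bm12.4 arrays, against 4.38 to 4.62 on macrophage arrays. Much of the list was thus not called above macrophages, though a marker not called can still be expressed. Epcam, a defining surface marker of epithelium, averaged 3.75 ± 0.15 in C57epi.1 and 3.67 ± 0.2 in Bm12.4, against 3.79 ± 0.08 in macrophages. Cdh1, which encodes E-cadherin, stood at 4.26, 4.4, 4.14 and 4.39 in C57epi.1 and 4.36, 4.37, 4.36 and 4.46 in Bm12.4, against 7.95, 7.33, 7.16 and 6.57 in macrophages. It was thus dim in both lines and lower there than in every macrophage array (-2.91, limma adjusted p = 1.28e-09). The matriptase inhibitor Spint1 (-5.46) and matriptase itself, St14 (-1.98), were lower in the lines as well.

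Keratins told the lines apart. Krt8, a simple epithelial keratin, averaged 9.03 ± 0.12 in C57epi.1 and 5.78 ± 0.1 in Bm12.4, against 5.62 ± 0.12 in macrophages. The basal keratin Krt14 averaged 10.99 ± 0.15 and 7.24 ± 0.39 in C57epi.1 and Bm12.4, against 4.82 ± 0.22 in macrophages. P-cadherin (Cdh3, named after its values were seen) was present in C57epi.1 alone of the 3 groups, at 9.39 ± 0.29, with 4.42 ± 0.14 in Bm12.4, against 4.44 ± 0.07 in macrophages. The tight junction scaffold Tjp1 was higher in both lines (3.91). Krt18, the usual partner of Krt8, was not called in either line, at 5.62 ± 0.43 in C57epi.1 and 4.87 ± 0.16 in Bm12.4, against 4.92 ± 0.1 in macrophages. Vimentin (Vim) was bright in all groups, at 13.35 ± 0.05, 12.49 ± 0.1 and 13.58 ± 0.04 in C57epi.1, Bm12.4 and macrophages.

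Regulators of the female reproductive tract were higher in the lines at 13 of 29 genes and lower at 1 (48.3% called, median 0.58). Upk3b, a uroplakin also known from mesothelium, averaged 10.71 ± 0.29 in C57epi.1 and 12.18 ± 0.29 in Bm12.4, against 5.09 ± 0.23 in macrophages. The transcription factors Gata6 (5.33) and Wt1 (4.48) were higher in both lines, whereas the oestrogen receptor Esr1 was lower (-2.52). Hoxa11, a patterning gene of the tract named after its values were seen, was at 7.68 ± 0.36 in C57epi.1 but 3.85 ± 0.12 in Bm12.4, against 3.92 ± 0.07 in macrophages.

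**Figure D2:**
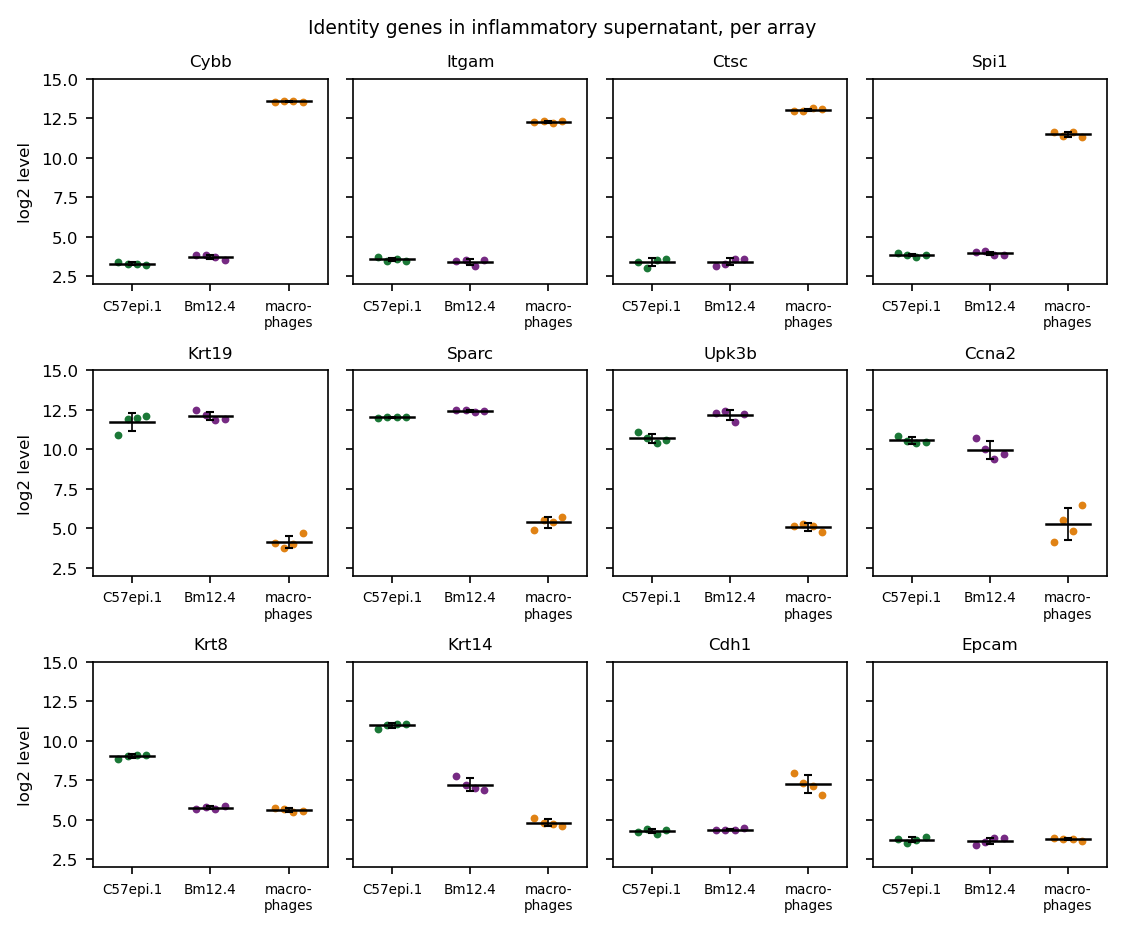
Log2 levels of 12 identity genes on each of the 12 arrays in inflammatory supernatant, with the mean (bar) and SD (whisker) of 4 arrays per group. Cybb, Itgam, Ctsc and Spi1 are bright in macrophages alone, Krt19, Sparc, Upk3b and Ccna2 in both lines, Krt8 in C57epi.1, and Epcam in no group.

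Interferon-induced genes of cell-autonomous defence were called at shares near the 21.0% of all genes. Of 12 measured interferon-inducible GTPases none was higher and 2 were lower in the lines (16.7% called), with a median difference of 0. In both lines the 95% interval against macrophages lay within 2-fold for 6 of the 12. All 6 were among the 11 GTPases with a mean of log2 8 or more in all 3 groups, and over all genes that bright the share was 57.2% (1876 of 3281). The promoters of Irgm1, an immunity-related GTPase, and of Cxcl10, a T cell chemokine, are printed because they hold the element through which interferons act on such genes and because the genes behaved differently here. The windows run from 250 bases before to 50 after the annotated start, from RefSeq on GRCm38.p6, 5′ to 3′ on the gene's strand, and capitals mark matches to the interferon-stimulated response element (GAAA, any 2 bases, GAAA), searched on both strands.
Irgm1, chr11:48871371-48871670 (-): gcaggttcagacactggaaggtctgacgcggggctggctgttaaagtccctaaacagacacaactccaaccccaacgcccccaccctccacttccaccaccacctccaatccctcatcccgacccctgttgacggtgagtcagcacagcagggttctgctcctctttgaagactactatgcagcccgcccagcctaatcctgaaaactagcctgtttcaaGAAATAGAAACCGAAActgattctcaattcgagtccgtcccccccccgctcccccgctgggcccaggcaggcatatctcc
Cxcl10, chr5:92348840-92349139 (-): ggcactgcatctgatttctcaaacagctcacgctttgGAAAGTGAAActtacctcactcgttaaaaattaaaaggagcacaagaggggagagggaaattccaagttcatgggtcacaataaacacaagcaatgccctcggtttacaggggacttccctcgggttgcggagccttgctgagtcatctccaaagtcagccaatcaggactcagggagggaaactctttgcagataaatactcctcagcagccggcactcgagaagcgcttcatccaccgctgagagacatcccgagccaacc
In Irgm1 there were 2 overlapping matches, beginning 30 and 24 bases before the start, and in Cxcl10 there was 1, beginning 213 bases before it. All 6 GTPase genes with a window held this element, as did 12 of 28 antiviral genes with a window (42.9%), against 607 of 15614 genes over the array (3.89%). A gamma-activated site, TTCNNNGAA, stood in 3 of the 6 GTPase windows and 8 of the 28 antiviral windows (28.6%), against 8.99% of all genes. It stood as often in some other lists, at 3 of 10 oxidase genes (30.0%) and 6 of 22 pattern recognition genes (27.3%), but in 0 of 12 class II genes. A match is a description of the letters and not a measured binding site.

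Irgm1 stood at 12.44, 12.01, 11.99 and 11.96 in C57epi.1 and 12.05, 12.11, 12.05 and 12.22 in Bm12.4, against 12.08, 12.11, 12.36 and 12.09 in macrophages. The groups overlapped, and the 95% interval of the difference ran from -0.3 to 0.18 in C57epi.1 and from -0.29 to 0.18 in Bm12.4. Gbp3, a guanylate-binding protein (named after its values were seen), stood at 12.06, 11.94, 11.91 and 11.84 in C57epi.1 and 12.01, 12.03, 12.16 and 12.08 in Bm12.4, against 11.87, 11.94, 12.03 and 11.97 in macrophages. Its intervals against macrophages were -0.18 to 0.15 and -0.05 to 0.28 in C57epi.1 and Bm12.4. Guanylate-binding proteins are similar in sequence and can share signal on an array. The 2 GTPases lower in the lines were Gbp2b (-4.08) and Gbp8 (-1.55). Gbp2b was dim in both lines, at 4.39 ± 0.04 in C57epi.1 and 4.47 ± 0.22 in Bm12.4, against 8.51 ± 0.23 in macrophages.

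Of 38 antiviral interferon-stimulated genes 5 were higher and 4 lower in the lines (23.7% called, median 0.15). Intervals lay within 2-fold in both lines for 19 of them, and for 64.5% of all genes, bright or dim. Among the 30 antiviral genes with a mean of log2 8 or more in all 3 groups it was 17, against 57.2% of all genes that bright. Ifitm3, a membrane protein that blocks virus entry, averaged 13.1 ± 0.05 in C57epi.1 and 13.37 ± 0.16 in Bm12.4, against 13.27 ± 0.14 in macrophages. Usp18, the deconjugase that damps interferon signalling, and Sting1, the adaptor of DNA sensing, likewise differed by -0.16 and -0.09 over both lines; these were named after their values were seen. The higher genes included Ifit3b (2.68), Mx2 (2.29) and the oligoadenylate synthase Oas2 (1.53).

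The mean of the lines hid genes that were missing from 1 line. Parp12, an antiviral ADP-ribosyltransferase, stood at 3.89, 3.99, 3.79 and 3.76 in C57epi.1 and 11.21, 11.21, 11.25 and 11.31 in Bm12.4, against 10.54, 10.55, 10.88 and 10.7 in macrophages. C57epi.1 was at the dim end on every array, whereas Bm12.4 lay above macrophages by 0.58. Cmpk2, a mitochondrial nucleotide kinase, stood at 3.95, 3.43, 3.75 and 4.21 in C57epi.1 and 10.71, 10.38, 10.34 and 10.24 in Bm12.4, against 9.8, 9.98, 10.68 and 10.59 in macrophages. The lines differed by -7.39 for Parp12 and -6.58 for Cmpk2 (C57epi.1 minus Bm12.4, limma treat against 2-fold, adjusted p = 1.25e-15 and 1.66e-11). Ifih1, which encodes the RNA sensor MDA5 (named after its values were seen), was also lower in C57epi.1, at 5.14 ± 0.19, with 10.8 ± 0.07 in Bm12.4, against 10.28 ± 0.16 in macrophages.

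Interferon signalling components were lower in the lines at 11 of 26 genes and higher at none (42.3% called, median -0.75). Those with the largest differences were Irf8 (-6.07), the phosphatase Ptpn6 (-5.67) and Irf4 (-4.35). Irf1, the factor most directly induced by interferon-gamma, was not called, at 11.96 ± 0.17 in C57epi.1 and 11.34 ± 0.09 in Bm12.4, against 11.89 ± 0.07 in macrophages. The receptor chain Ifngr1 was lower in both lines, at 8.28 ± 0.13 and 8.86 ± 0.05 in C57epi.1 and Bm12.4, against 10.25 ± 0.15 in macrophages (limma adjusted p = 8.15e-11 for the mean of the lines).

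Genes of class I presentation were lower or not called in the lines, and the lines parted at peptide supply. Of 24 genes 12 were lower in the lines and none higher (50.0% called), with medians of -1.27 (C57epi.1) and -0.7 (Bm12.4). B2m, the light chain shared by class I molecules, averaged 13.18 ± 0.05 in C57epi.1 and 13.38 ± 0.19 in Bm12.4, against 13.66 ± 0.03 in macrophages. The chaperones Tapbp and Pdia3 of the loading complex differed by -0.77 and -0.07.

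Tap1, a chain of the peptide transporter, stood at 6.13, 6.84, 7.16 and 6.61 in C57epi.1 and 10.96, 11.21, 11.32 and 11.31 in Bm12.4, against 11.43, 11.55, 11.55 and 11.51 in macrophages. C57epi.1 thus differed by -4.82 (limma adjusted p = 2.05e-12) and Bm12.4 by -0.31 (adjusted p = 0.147). Psmb9, an immunoproteasome subunit whose gene lies beside Tap1 (named after its values were seen), stood at 6.18, 5.81, 6.18 and 6.14 in C57epi.1 and 10.9, 11.3, 11.39 and 11.34 in Bm12.4, against 11.35, 11.38, 11.42 and 11.54 in macrophages. The immunoproteasome subunit Psmb8 had the opposite order, at 8.09, 8.09, 8.36 and 8.24 in C57epi.1 and 5.86, 6.11, 5.79 and 5.81 in Bm12.4, against 11.34, 11.53, 11.39 and 11.41 in macrophages. C57epi.1 was thus below macrophages in both subunits and Bm12.4 in Psmb8, and the third inducible subunit, Psmb10 (also named after its values were seen), averaged 11.23 ± 0.12 and 11.16 ± 0.19 in C57epi.1 and Bm12.4, against 11.32 ± 0.2 in macrophages. The class I genes that differed most from macrophages in both lines were H2-M2 (-6.23) and the lipid-presenting Cd1d1 (-4.67). MHC genes are polymorphic and similar in sequence, so a level can also reflect how well a probe matches an allele.

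Class II genes were expressed in both lines but below macrophages. Of 16 genes 11 were lower and none higher (68.8% called, median -2.64), and without Bm12.4 replicate 1 the median was -2.59 with 11 called. The windows of 2 genes are printed because they differed from macrophages by unlike amounts: H2-Aa, the alpha chain, and Ctss, the protease that trims the invariant chain. Capitals mark CTGATTGG, the Y box of class II promoters, in H2-Aa and ACTTCCTC in Ctss, the reverse complement of GAGGAAGT, a PU.1 type site. Both were searched on both strands of the same windows.
H2-Aa, chr17:34287774-34288073 (-): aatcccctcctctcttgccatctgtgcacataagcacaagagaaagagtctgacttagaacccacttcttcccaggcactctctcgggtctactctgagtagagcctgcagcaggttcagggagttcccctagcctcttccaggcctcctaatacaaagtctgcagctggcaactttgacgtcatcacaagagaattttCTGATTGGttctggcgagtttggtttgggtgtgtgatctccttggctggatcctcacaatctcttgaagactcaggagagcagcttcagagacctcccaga
Ctss, chr3:95526536-95526835 (+): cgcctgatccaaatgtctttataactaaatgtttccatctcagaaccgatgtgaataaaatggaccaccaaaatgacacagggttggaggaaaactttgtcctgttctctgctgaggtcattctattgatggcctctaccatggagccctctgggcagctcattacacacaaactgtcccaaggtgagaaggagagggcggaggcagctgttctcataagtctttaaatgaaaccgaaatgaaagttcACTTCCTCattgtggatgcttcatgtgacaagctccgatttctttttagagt
The Y box began 51 bases before the start of H2-Aa, and the PU.1 type match lay at 2 bases before that of Ctss. The Y box was in 4 of 12 class II genes with a window (33.3%), against 5.44% of all genes, and the PU.1 type site in 4 of 27 macrophage identity genes (14.8%) and 4 of 23 lysosomal genes (17.4%), against 3.24%. Some other lists held the PU.1 type site less often, at 0 of 23 scavenger receptor genes and 0 of 10 oxidase genes. It was in 1 of 14 Fc and complement receptor genes and 1 of 12 class II genes. Further lists held it at like or higher shares. These were neutrophil and mast cell markers (6 of 19, 31.6%), integrins and laminins (4 of 22, 18.2%) and inflammasome genes (4 of 24, 16.7%). The Y box stood as well in 6 of 16 sterol synthesis genes (37.5%) and 6 of 32 mitosis genes (18.8%). The Ctss window also holds the letters of the interferon element, left in lower case.

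H2-Aa stood at 8.59, 8.84, 8.66 and 8.78 in C57epi.1 and 7.22, 8.86, 9.85 and 9.31 in Bm12.4, against 12.54, 12.64, 12.24 and 12.45 in macrophages. Both lines were below every macrophage array and Bm12.4 replicate 1 was the lowest, with a difference of -3.7 ± 0.331 over both lines (SE; limma adjusted p = 1.38e-07), and -3.44 without that replicate. H2-Ab1, the beta chain that carries the bm12 mutation, stood at 7.37, 7.85, 7.75 and 7.55 in C57epi.1 and 7.16, 9.18, 10.04 and 9.56 in Bm12.4, against 13.19, 13.25, 12.95 and 12.97 in macrophages. Its difference was -4.78 ± 0.37, and -4.48 without Bm12.4 replicate 1. Whether the probes cover the mutated bases was not tested.

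Cd74, the invariant chain, stood at 9.21, 9.71, 9.49 and 9.51 in C57epi.1 and 9.36, 10.43, 10.79 and 10.68 in Bm12.4, against 12.91, 12.91, 12.47 and 12.75 in macrophages, a difference of -2.86 (-2.7 without Bm12.4 replicate 1). The transactivator Ciita differed less than its targets. It stood at 6.83, 6.78, 6.63 and 6.64 in C57epi.1 and 6.42, 6.81, 6.87 and 6.9 in Bm12.4, against 7.61, 7.59, 7.85 and 7.84 in macrophages. All line arrays were below all macrophage arrays, by -0.99 ± 0.0968 (SE; limma adjusted p = 3.89e-07), just short of the 2-fold rule, and -0.93 without Bm12.4 replicate 1. The mean of the lines passed the rule, at -1.01 to -1.03, when 1 of 5 arrays was left out (replicate 1 of C57epi.1, 3 or 4 of Bm12.4, 1 or 2 of macrophages), and at -1.08 after quantile normalization or with replicates 3 and 4 only. C57epi.1 alone was called (-1), a call lost without its replicate 3 or 4, without macrophage replicate 3 or 4, with replicates 1 and 2 only or after centring on array medians. Ctss stood at 7.51, 7.81, 8.05 and 8.25 in C57epi.1 and 5.53, 6.39, 6.37 and 6.48 in Bm12.4, against 13.84, 13.85, 13.9 and 13.92 in macrophages, a difference of -6.83 (-6.72 without Bm12.4 replicate 1).

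**Figure D3:**
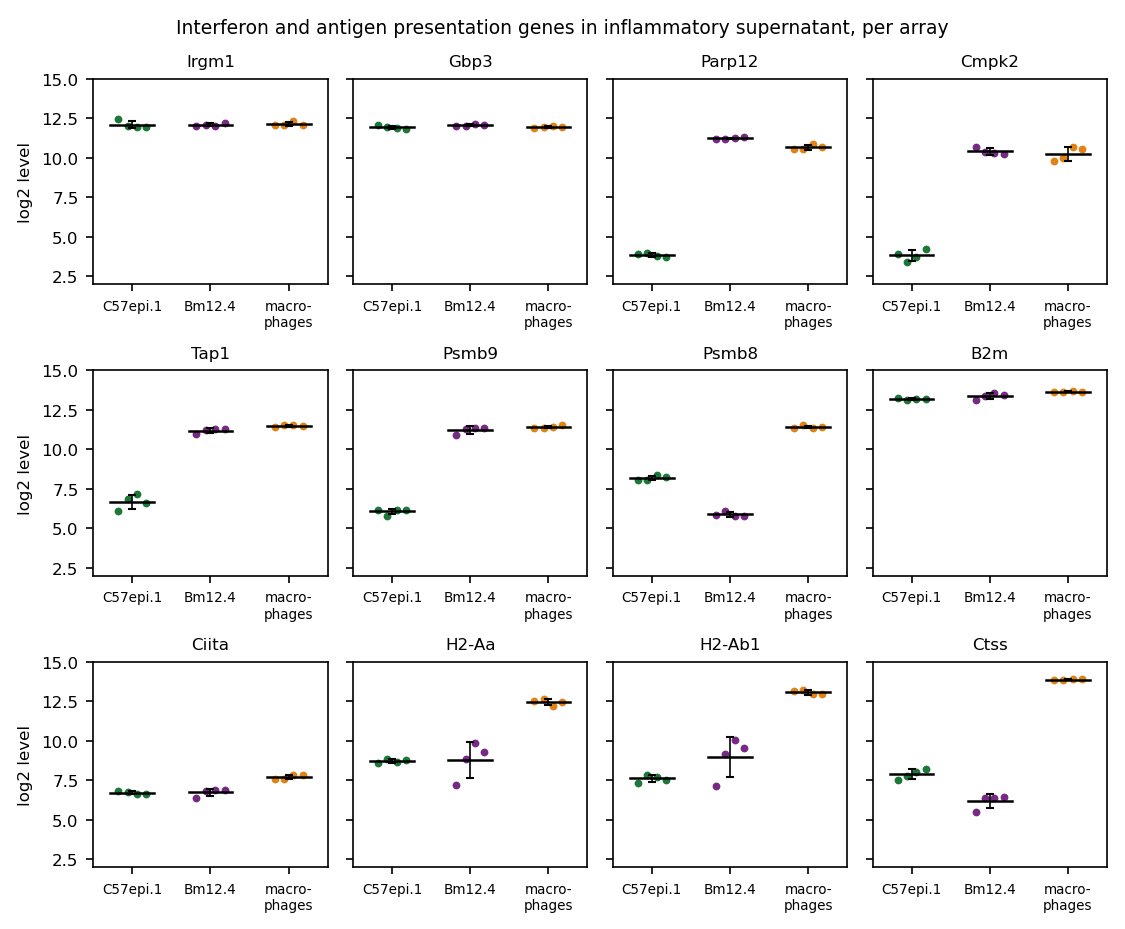
Log2 levels of 12 interferon and antigen presentation genes on each of the 12 arrays in inflammatory supernatant, with the mean (bar) and SD (whisker) of 4 arrays per group. Irgm1, Gbp3 and B2m lie close together in all groups, Parp12, Cmpk2, Tap1 and Psmb9 are low in C57epi.1, Psmb8 is lowest in Bm12.4, and H2-Aa, H2-Ab1 and Ctss lie between 5.53 and 10.04 in the lines, against 12.24 or more in macrophages.

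Costimulatory ligands of professional antigen presenting cells were lower in the lines. Of 34 genes for T cell costimulation and inhibition 20 were lower and 5 higher (73.5% called, median -1.57). Cd86, the main B7 ligand of CD28 on macrophages, stood at 3.12, 3.23, 3.17 and 3.21 in C57epi.1 and 3.08, 2.94, 3.23 and 3.28 in Bm12.4, against 10.46, 10.49, 10.3 and 10.07 in macrophages. It lay at the dim end on all 8 line arrays (-7.17, limma adjusted p = 1.81e-17). Cd80, the other B7 ligand, averaged 5 ± 0.16 in C57epi.1 and 5.28 ± 0.27 in Bm12.4, against 6.76 ± 0.01 in macrophages. Cd40 averaged 4.84 ± 0.13 and 4.95 ± 0.16 in C57epi.1 and Bm12.4, against 8.59 ± 0.2 in macrophages.

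The inhibitory ligands split. Pdcd1lg2 (PD-L2) was dim in both lines (-6.57). Cd274 (PD-L1) was not, and stood at 9.07, 8.96, 9.03 and 8.88 in C57epi.1 and 8.86, 9.15, 8.85 and 8.93 in Bm12.4, against 12.56, 12.84, 12.55 and 12.5 in macrophages, a difference of -3.65 (limma adjusted p = 1.51e-14). The galectin Lgals9, named after its values were seen, was slightly above macrophages, by 0.79, under the 2-fold rule. Of the 5 higher genes, the adhesion molecule Vcam1 stood at 11.54, 11.79, 11.69 and 11.84 in C57epi.1 and 12.72, 12.78, 12.86 and 12.69 in Bm12.4, against 6.87, 7.26, 7.11 and 7.22 in macrophages. No array of either line overlapped macrophages (5.12). Tnfsf18, the ligand of the T cell receptor GITR, was higher in Bm12.4 (5.3) but not called in C57epi.1 (0.86), and the lines differed by -4.44 (limma treat against 2-fold, adjusted p = 9.87e-08). Icam1 was lower in both lines (-1.52).

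Chemokines moved both ways. Of 33 genes 9 were higher and 15 lower in the lines (72.7% called, median -0.29). Cxcl12 (6.16), the ligand of CXCR4, and Cxcl5 (5.73) and Cxcl1 (4.75), which attract neutrophils through CXCR2, led the higher ones. Cxcl10, a CXCR3 ligand whose promoter is printed above, stood at 13.86, 13.7, 13.62 and 13.55 in C57epi.1 and 13.63, 13.55, 13.51 and 13.44 in Bm12.4, against 9.1, 9.93, 9.62 and 9.84 in macrophages. Both lines exceeded every macrophage array, by 4.06 and 3.91 (limma adjusted p = 3.58e-12 and 5.53e-12).

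The 3 CXCR3 ligands did not behave alike. Cxcl11 (named after its values were seen) was higher in both lines, by 4.16 in C57epi.1 and 1.3 in Bm12.4. Cxcl9 stood at 11.41, 11.11, 10.78 and 10.52 in C57epi.1 and 8.97, 8.44, 8.5 and 8.27 in Bm12.4, against 9.82, 10.4, 9.51 and 10.45 in macrophages. C57epi.1 lay above all macrophage arrays, by 0.91, under the 2-fold rule, Bm12.4 lay below them, by -1.5, and the lines differed by 2.41 (limma treat against 2-fold, adjusted p = 0.000379). The monocyte chemokines Ccl2 (2.66) and Ccl7 (3.97, named after its values were seen) were higher in both lines. Lower in the lines were the macrophage chemokines Ccl6 (-8.41), Ccl3 (-7.19), Ccl9 (-6.98) and Cxcl16 (-6.47). Ccl5, which draws effector T cells, averaged 9.49 ± 0.24 in C57epi.1 and 9.16 ± 0.38 in Bm12.4, against 13.27 ± 0.3 in macrophages.

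Of 40 immune cytokines 6 were higher and 14 lower in the lines (50.0% called, median -0.2). Tnf averaged 4.6 ± 0.22 in C57epi.1 and 4.55 ± 0.19 in Bm12.4, against 8.37 ± 0.46 in macrophages, and the interleukin-1 antagonist Il1rn (-6.88), Il1f9 (-5.82), Il1a (-5.43) and the interleukin-12 subunit Il12b (-2.7) were lower as well. Higher in the lines were Tgfb3 (4.65), Tgfb2 (4.24), the interleukin-6 family member Lif (3.07), Il6 itself (1.78) and the macrophage growth factor Csf1 (1.59, named after its values were seen). Il6 stayed at a dim level, at 4.76 ± 0.49 in C57epi.1 and 4.88 ± 0.47 in Bm12.4, against 3.03 ± 0.24 in macrophages. Il15 differed by -1.73 in C57epi.1 and -1.01 in Bm12.4, and the Bm12.4 call was lost, at -0.95 to -0.98, when replicate 1 or 4 of that line, or 2, 3 or 4 of macrophages, was left out, and at -0.92 with replicates 1 and 2 only. Il18 was dim and not called.

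**Figure D4:**
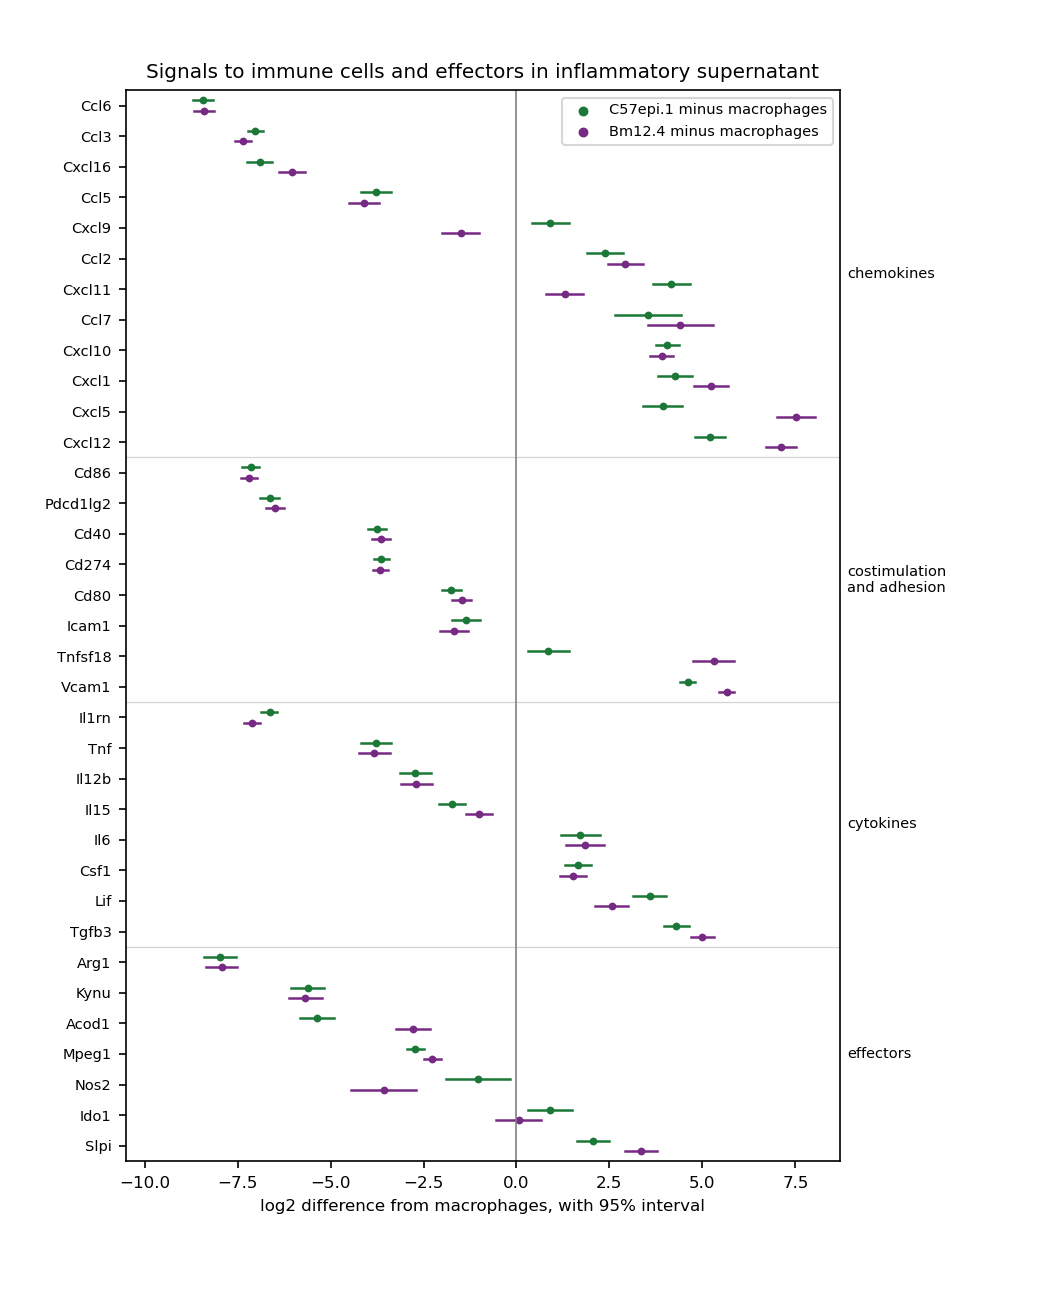
Log2 differences from macrophages in inflammatory supernatant with 95% intervals, for C57epi.1 (green) and Bm12.4 (purple), of chemokines, costimulatory and adhesion molecules, cytokines and effectors. Cxcl10 and Vcam1 lie to the right in both lines, Cd86 and Ccl3 to the left, and Cxcl9, Cxcl5, Tnfsf18, Acod1 and Nos2 part the lines.

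Antimicrobial effectors were lower at 9 of 22 genes and higher at 1 (45.5% called, median -0.83). Nos2, the inducible nitric oxide synthase, stood at 8.41, 9.64, 9.88 and 9.96 in C57epi.1 and 7.4, 7.23, 6.75 and 6.37 in Bm12.4, against 10.83, 11.52, 9.5 and 10.19 in macrophages. C57epi.1 overlapped macrophages (-1.04, limma adjusted p = 0.0448), and this call was lost without replicate 1 or 2 of that line, replicate 2 or 3 of Bm12.4, or replicate 1, 2 or 4 of macrophages (-0.68, adjusted p = 0.152, without C57epi.1 replicate 1). Bm12.4 was below all macrophage arrays (-3.57, adjusted p = 2.21e-06). Acod1, which makes itaconate, averaged 7.3 ± 0.52 and 9.9 ± 0.32 in C57epi.1 and Bm12.4, against 12.67 ± 0.09 in macrophages. Arginase (Arg1, -7.95) and kynureninase (Kynu, -5.65) were dim in both lines. Ido1, which depletes the tryptophan Chlamydia needs, was dim in all groups and not called, at 5.13 ± 0.34 in C57epi.1 and 4.29 ± 0.47 in Bm12.4, against 4.23 ± 0.6 in macrophages. The secretory protease inhibitor Slpi was higher in both lines (2.71). Mpeg1, the pore-forming perforin-2 of phagocytes, stood at 10.23, 10.24, 10.22 and 10.43 in C57epi.1 and 10.41, 10.78, 10.91 and 10.85 in Bm12.4, against 12.93, 12.93, 13.09 and 13.07 in macrophages, lower by -2.5 but far from the dim end.

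Pattern recognition genes were lower in the lines at 15 of 30 and higher at 2 (56.7% called, median -0.99), with medians of -1.47 (C57epi.1) and -0.74 (Bm12.4). The endosomal receptors Tlr13 (-7.19) and Tlr8 (-5.24) and their chaperone Unc93b1 (-8.04) were dim in both lines. The peptidoglycan sensor Nod1 was higher in the mean of the lines (1.19), at 8.01 ± 0.14 in C57epi.1 and 9.71 ± 0.07 in Bm12.4, against 7.67 ± 0.09 in macrophages. No gene of this list was called higher in C57epi.1 alone, so the call for Nod1 rests on Bm12.4. Tlr2, a receptor for bacterial lipoproteins, was called in opposite directions, at 7.6 ± 0.32 in C57epi.1 and 10.22 ± 0.18 in Bm12.4, against 8.93 ± 0.21 in macrophages. The endotoxin receptor Tlr4 averaged 8.04 ± 0.22 and 9.78 ± 0.16 in C57epi.1 and Bm12.4, against 9.77 ± 0.18 in macrophages.

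Of 28 inflammasome and cell death genes 13 were lower and 3 higher (57.1% called, median -0.84). The adaptor Pycard (-4.73) and the sensor Nlrp3 (-4.1) were dim in both lines. Casp1 averaged 6.03 ± 0.27 in C57epi.1 and 8.99 ± 0.2 in Bm12.4, against 10.44 ± 0.06 in macrophages. The DNA sensor Aim2 had the opposite order of lines, at 8.02 ± 0.07 and 4.04 ± 0.21 in C57epi.1 and Bm12.4, against 8.81 ± 0.13 in macrophages. Casp4 of the non-canonical pathway differed by 0.25 and the pore-former Gsdmd by -0.18 over both lines, neither called. Aim2, Casp4 and Gsdmd were named after their values were seen. Death receptors were among the higher genes, with Tnfrsf10b (3.28) in both lines and Fas in Bm12.4 (1.92) but not in C57epi.1 (0.29).

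Complement and acute phase genes were higher at 5 of 24 and lower at 12 (70.8% called, median -0.93). C4b (4.81) and the classical pathway protease C1s1 (4.02) were higher in the lines, while the recognition chains C1qb (-6.77) and C1qc (-6.34) and properdin Cfp (-6.71) were lower. Lbp, which hands endotoxin to its receptor, averaged 7.24 ± 0.94 in C57epi.1 and 13.06 ± 0.23 in Bm12.4, against 5.64 ± 0.47 in macrophages. Saa3, named after its values were seen, averaged 8.34 ± 0.34 and 12.78 ± 0.63 in C57epi.1 and Bm12.4, against 11.26 ± 0.81 in macrophages. The list held 9 genes lower and none higher in C57epi.1 than in Bm12.4.

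Matrix remodelling genes were split, with 13 of 31 higher and 10 lower (74.2% called). The inhibitor Timp3 (6.1) and the lysyl hydroxylase Plod2 (5.87) were higher in the lines, and the collagenases Mmp8 (-6.65) and Mmp13 (-4.98, named after its values were seen) and the protease Adam8 (-5.87) were lower. Of 33 integrins and laminins 8 were higher, led by the basement membrane linker Nid1 (4.65) and Itga3 (3.95), and 10 lower, led by Itgam and the leukocyte chains Itgax (-8.06) and Itgb2 (-7.28). Growth factors and receptors of epithelium and stroma were higher at 19 of 45 and lower at 7 (57.8% called), including Igfbp4 (5.67), Ccn1 (5.46) and Egfr (5), with Kdr (-5.74), Igf1 (-5.52) and Hgf (-3.91) lower.

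Genes of mitosis and replication were higher in the lines at 36 of 39 and lower at none (92.3% called, median 3.12). Ccna2, which encodes cyclin A2, stood at 10.87, 10.54, 10.39 and 10.5 in C57epi.1 and 10.73, 10.04, 9.42 and 9.72 in Bm12.4, against 4.14, 5.54, 4.84 and 6.51 in macrophages. The lines stayed above all macrophage arrays, which were themselves spread, a difference of 5.02 ± 0.338 (SE). Ccna2 was picked for the size of this difference within the list, so no test is given for it. The mitotic kinase Plk1 (4.81) and the spindle motor Kif11 (4.74) followed, and the proliferation marker Mki67 differed by 3.46. The replication clamp Pcna was an exception, at 10.86 ± 0.19 in C57epi.1 and 11.14 ± 0.49 in Bm12.4, against 11.25 ± 0.09 in macrophages; it and Mki67 were named after their values were seen. The letters TTTGAA, a core of the cell cycle genes homology region, stood in 15 of 32 windows of these genes (46.9%), against 17.3% of all genes. They were not particular to this list, standing also in 10 of 24 inflammasome genes (41.7%) and 8 of 23 scavenger receptor genes (34.8%). Among Fc and complement receptor genes 0 of 14 held them. Of 20 sterol synthesis genes 9 were higher and none lower (45.0% called), led by Cyp51 (2.74) and Sqle (2.68). Continuous growth of a cell line and the cell type cannot be told apart in this comparison.

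The lines were called in opposite directions against macrophages at 49 genes (0.246% of 19938). Niban1, a stress-response protein, was higher in C57epi.1 and lower in Bm12.4, at 10.59 ± 0.21 and 3.94 ± 0.21, against 8.41 ± 0.21 in macrophages. Adgrg6, Sdr39u1 and Nipsnap1 had the same order, with C57epi.1 minus Bm12.4 differences of 4.52, 3.86 and 4.46. Vldlr, a lipoprotein receptor, had the reverse, at 4.24 ± 0.14 in C57epi.1 and 10.04 ± 0.11 in Bm12.4, against 5.95 ± 0.18 in macrophages. Entpd5, Cbr3 and Etfbkmt were likewise lower in C57epi.1 (-4.81, -4.74 and -3.94). Opposite calls set these 8 genes far apart between the lines by choice, so no test is given for them. Over all genes, 1026 passed limma's treat against 2-fold between the lines (5.15%).

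The difference between the lines and macrophages in supernatant was then set against the same difference in media, in a fit of all 24 arrays. It changed at 523 genes (2.62%), with 299 moving towards the lines (1.50%) and 224 towards macrophages (1.12%). In media the lines were called against macrophages at 3993 genes (20.0%). Media arrays numbered 1 and 2 stood apart from those numbered 3 and 4 in Bm12.4, for example at 5.17 and 4.61 against 8.3 and 8.25 for Gbp3. With numbers 1 and 2 only the count was 736, and with 3 and 4 only 986, so values with each pair of numbers are given beside several of the changes below.

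Genes moving towards the lines were led by Mpeg1. Its difference from macrophages was -2.5 in supernatant, against -8.65 in media, a change of 6.16, and of 6.32 and 6 with numbers 1 and 2 or 3 and 4 only. Mpeg1 was picked for the size of this change, so no test is given for it. Class II followed, with 7 of 16 genes moving this way and 1 the other. H2-Aa changed by 4.94 (4.14 with numbers 1 and 2, 5.73 with 3 and 4), and by 5.2 without Bm12.4 supernatant replicate 1. H2-Ab1 changed by 3.47 (2.73 with numbers 1 and 2, 4.2 with 3 and 4), and by 3.77 without that replicate. Cd74 changed by 4.28 and Ciita by 1.73, and by 4.44 and 1.79 without it. In media H2-Aa stood at 3.8, 3.33, 3.49 and 3.14 in C57epi.1 and 3.14, 3.65, 3.4 and 3.2 in Bm12.4, against 11.72, 11.95, 12.19 and 12.28 in macrophages. H2-Aa was thus dim on every line array in media, where macrophages were already bright.

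Of the GTPases 6 of 12 moved towards the lines and 1 towards macrophages, and of the antiviral genes 12 of 38 and 2. Gbp3 was not called in supernatant (0.05), against -3.54 in media, a change of 3.59 that was 4.45 with numbers 1 and 2 and 2.73 with 3 and 4. Trim30a, an interferon-induced tripartite motif protein, was at -0.37 in supernatant, against -4.95 in media, a change of 4.58 (5.37 with numbers 1 and 2, 3.8 with 3 and 4). Irgm1 was not called in either, at -0.06 in supernatant, against -0.12 in media. Cd274 changed by 3.08 (3.13 with numbers 1 and 2, 3.03 with 3 and 4). Cxcl10 changed by 1.69 (2 with numbers 1 and 2, 1.39 with 3 and 4). Ms4a4d, Apol10b and Apol6 were higher in the lines in supernatant, and their differences changed by 4.79, 4.76 and 3.94. Of the mitotic genes 8 of 39 moved towards the lines, Ccna2 by 2.79 (limma adjusted p = 0.015), a call lost with numbers 1 and 2 only (2.05, adjusted p = 0.0526).

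Towards macrophages moved other members of the Ms4a family and several costimulatory genes. Ms4a4c stood at 4.05, 3.61, 3.84 and 3.69 in C57epi.1 and 4, 4.44, 4.4 and 4.68 in Bm12.4, against 9.44, 9.6, 10.39 and 10.17 in macrophages, and its difference was -5.81 in supernatant, against -0.11 in media. Ms4a6b (-5.42) and Ms4a6c (-5.31) changed likewise, and Ms4a genes are similar in sequence. The endothelin precursor Edn1 was not called in supernatant (0.29), against 5.11 in media, its level in macrophages being 8.72, 8.79, 8.11 and 7.88 in supernatant, against 4.41, 4.39, 4.01 and 4.38 in media. Gbp2b changed by -3.88. Among the costimulatory genes 7 of 34 moved towards macrophages and 2 towards the lines, with Cd40 at -3.36 and Cd86 at -2.75. Tnf (-1.82) and Il12b (-2.19) changed in the same direction, as did the sialoadhesin gene Siglec1 (-2.93, named after its values were seen).

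**Figure D5:**
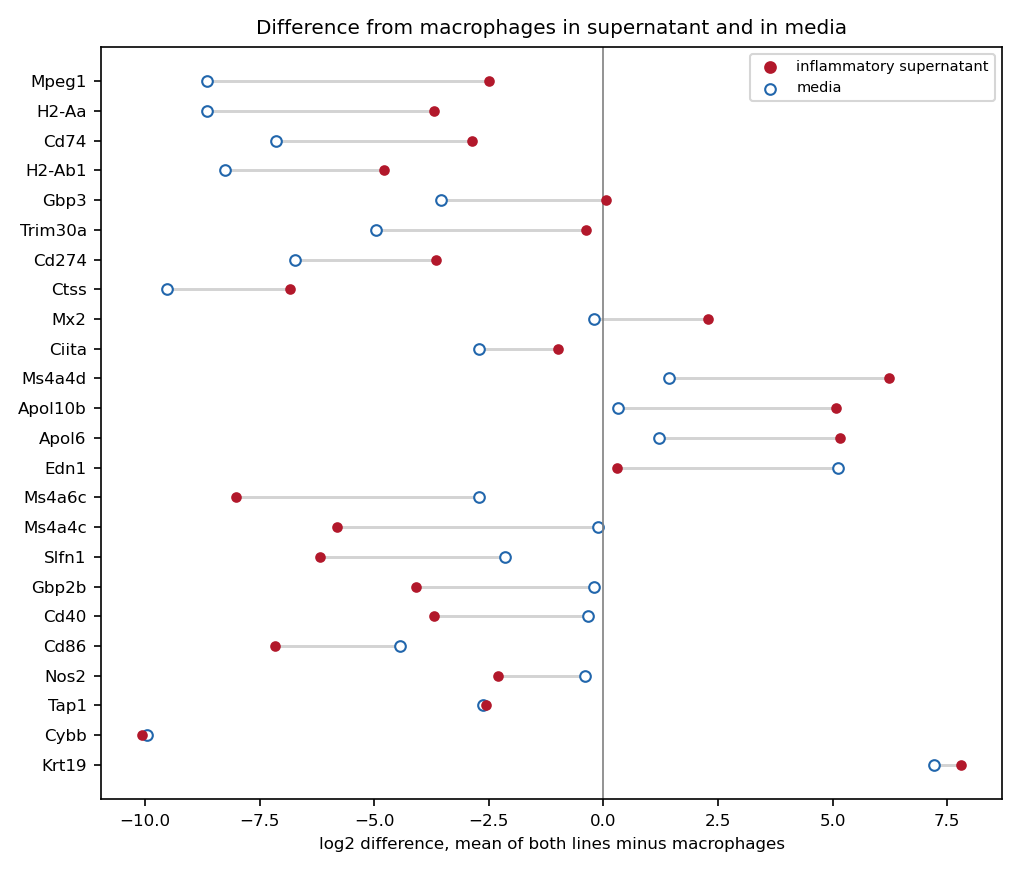
Log2 difference of the mean of both lines from macrophages for 24 genes, in inflammatory supernatant (filled red) and in media (open blue). Mpeg1, class II genes, Gbp3 and Trim30a lie closer to 0 in supernatant, Ms4a4c, Gbp2b, Cd40 and Cd86 lie further to the left, and Cybb, Tap1 and Krt19 stay in place.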

How the data were processed

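RNA of 24 samples was measured on Affymetrix whole-transcript arrays, and the deposited values are log2 levels on the RMA scale (background-corrected and normalized across arrays), with GCOS, Partek 6.2 and RMA named in the submitters' processing notes. The table holds 28853 probe sets, of which 21789 had 1 gene symbol, 1621 several and 5443 none in the platform annotation. For each of 19938 genes the probe set with the highest mean was kept.

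The 12 supernatant arrays were fitted with 3 group means in limma 3.58.1 (R 4.3.3), with Benjamini-Hochberg adjustment over all genes. Array medians ran from 5.04 to 5.17, and 4 arrays per group limit the precision. The change between supernatant and media was fitted on all 24 arrays. On simulated data with 19938 genes, 99 of 100 genes changed by 1.5 (log2) and 100 of 100 changed by 3 were recovered.

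Named genes were, by rule, the largest differences each way, up to 3 called members each way per list, genes with opposite calls in the lines, the largest changes between supernatant and media, bright list genes near macrophage level and a set always named; further ones are marked in the text. The members and lists were chosen with earlier results of these data known.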

Additional observations from a re-analysis of the deposited data

Results flagged for a closer look

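Among 552 sets of 4 arrays (184 named genes in 3 groups in supernatant), 28 held 1 array far from the other 3. Dixon's test of the gap to the nearest array picked them, and chance gives about 1 in 20 such sets. In C57epi.1 it was replicate 1 for Krt19 (10.9), Scara5 (7.22), Ccl3 (3.58), Lif (8.6), Itgax (4.24), Cd68 (5.57), Il15 (6.8), Tlr2 (8.07), Edn1 (8.96) and Irgm1 (12.44). In C57epi.1 it was replicate 2 for Irf8 (4.94) and Psmb9 (5.81). In C57epi.1 it was replicate 4 for Mpeg1 (10.43) and Apol6 (8.37). In Bm12.4 it was replicate 1 for Ctss (5.53), Mmp8 (5.9), Ido1 (4.99), Sdr39u1 (3.8), Tapbp (12.15), Lgals9 (12.29) and Casp4 (9.46). In Bm12.4 it was replicate 4 for Ccl6 (5.28) and Cdh1 (4.46). In macrophages it was replicate 1 for Il15 (7.63). In macrophages it was replicate 3 for Pcolce (4.84) and Irgm1 (12.36). In macrophages it was replicate 4 for Sqle (6.84) and Casp4 (9.38). The values are log2 levels of the array that stood apart.

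At 49 named genes the difference from macrophages in supernatant was not the same in both lines, by limma's treat test of C57epi.1 minus Bm12.4 against 2-fold (adjusted p from 1.25e-15 to 0.0224). Over all genes, 5.15% passed that test. Niban1, Adgrg6, Sdr39u1, Nipsnap1, Vldlr, Entpd5, Cbr3 and Etfbkmt were picked for opposite calls, so the test is no support for them. Others were named after their values were seen, so the count is no result about the named genes. Higher in C57epi.1 were Niban1 (6.65), Col1a2 (6.17), Lox (6.06), Cdh3 (4.97), Adgrg6 (4.52), Nipsnap1 (4.46), Aim2 (3.98), Sdr39u1 (3.86), Hoxa11 (3.83), Krt14 (3.75), Krt8 (3.25), Cyba (3.13) and Cxcl11 (2.85). Also higher in C57epi.1 were Nos2 (2.54), Cxcl9 (2.41), Psmb8 (2.3), Itga3 (2.29), Adam8 (1.9), Mx2 (1.79) and Ctss (1.71). Lower in C57epi.1 were Parp12 (-7.39), Cmpk2 (-6.58), Lbp (-5.82), Vldlr (-5.8), Ifih1 (-5.66), Psmb9 (-5.16), Entpd5 (-4.81), Cbr3 (-4.74), Tap1 (-4.52), Tnfsf18 (-4.44), Saa3 (-4.44), Etfbkmt (-3.94) and Cxcl5 (-3.6). Also lower in C57epi.1 were Casp1 (-2.96), Mmp8 (-2.91), Tlr2 (-2.62), Acod1 (-2.6), Mmp13 (-2.38), Itgb2 (-2.06), Dcn (-2.01), Cxcl12 (-1.9), Apol6 (-1.86), Ms4a4d (-1.85), Tlr4 (-1.74), Nod1 (-1.7) and Tm4sf1 (-1.69). Also lower in C57epi.1 were Egfr (-1.69), Fas (-1.62) and Zeb2 (-1.53).

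At 56 named genes the difference of the lines from macrophages was not the same in supernatant as in media, by limma's test of that change on 24 arrays. Over all genes, 2.62% were called for it. The named genes include those picked for the largest such changes, so the count is no result about the named genes. It moved towards the lines at Mpeg1 (6.16), H2-Aa (4.94), Ms4a4d (4.79), Apol10b (4.76), Trim30a (4.58), Cd74 (4.28), Apol6 (3.94), Gbp3 (3.59), H2-Ab1 (3.47), C4b (3.24), Cd274 (3.08), Ccna2 (2.79) and Ctss (2.68). It also moved that way at Cxcl11 (2.59), Mx2 (2.49), Usp18 (2.32), Kif11 (2.21), Saa3 (2.17), Igfbp4 (2.03), Plk1 (1.98), Il6 (1.9), Ciita (1.73), Cxcl10 (1.69), Gbp8 (1.69), Il15 (1.68) and Ido1 (1.55). It also moved that way at Timp3 (1.44), Mmp8 (1.23), Fas (1.14) and Zeb2 (1.07). It moved towards macrophages at Ms4a4c (-5.7), Ms4a6b (-5.42), Ms4a6c (-5.31), Edn1 (-4.82), Gbp2b (-3.88), Il1f9 (-3.45), Cd40 (-3.36), Siglec1 (-2.93), Cd86 (-2.75), Il12b (-2.19), Cd1d1 (-2.19), Cmpk2 (-2.17) and Pdcd1lg2 (-2.03). A move towards macrophages was also seen at Nos2 (-1.9), Il1rn (-1.88), Tnf (-1.82), Kdr (-1.71), Ptpn6 (-1.68), Irf8 (-1.51), Ctsc (-1.44), Nod1 (-1.39), Tgfb3 (-1.31), Ccr7 (-1.29), Esr1 (-1.27), Ccl5 (-1.26) and Nlrp3 (-1).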

How the results depend on the processing

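Counts of called genes depended most on the fold minimum. Without it, 10425 genes were called for both lines against macrophages, 10034 for C57epi.1, 9580 for Bm12.4 and 6958 between the lines, and the treat test at 2-fold left 1026 between the lines. The change between supernatant and media was called at 986 genes with replicates 3 and 4 only. Leaving out 1 array at a time gave 4120 to 4215 calls for both lines, 4530 to 4614 for C57epi.1, 4027 to 4170 for Bm12.4, 1903 to 2257 between the lines and 467 to 571 for the change from media. With the replicate block, the counts were 4180 for both lines, 4575 for C57epi.1, 4100 for Bm12.4, 2022 between the lines and 559 for the change from media. The labels' numbers were not taken to pair the samples, since not every pair's deviations correlated above 0.1. Between the lines the same-numbered samples correlated at 0.27, 0.084, 0.139 and 0.212, a hint of shared numbers, and for pairs with macrophages the values lay between -0.147 and 0.046. C57epi.1 replicate 4 correlated as well with Bm12.4 replicate 3 (0.214).

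Leaving out dim genes moved list medians away from 0, to -6.02 for the oxidase, -6.66 for Fc receptors, -4.64 for scavenger receptors, -2.66 for costimulation, -0.86 for interferon signalling, -1.03 for chemokines, -1.37 for cytokines, -2.11 for antimicrobial effectors, -1.24 for inflammasome genes and -1.36 for complement. The same filter gave 0.75 for epithelial markers, 2.31 for collagens, 0.85 for matrix remodelling, -0.58 for integrins, 0.71 for growth factors and 1.31 for female tract regulators. For markers of other cell types it gave -5.98 (T cell), -1.94 (B cell), -2.17 (dendritic cell), -2.08 (neutrophil and mast cell) and -0.69 (endothelial). Genes pass this filter by their brightest group and those dim in all groups drop out, so it moves such medians by construction. Quantile normalization on top of RMA gave medians of -5.96 for macrophage identity, -2.45 for class II, 0.32 for GTPases, 0.38 for antiviral genes, 0.3 for matrix remodelling and -0.03 for T cell markers. With replicates 3 and 4 only, medians were -2.31 for class II, -0.03 for cytokines, -0.63 for complement, 0.43 for matrix remodelling, 0.68 for growth factors and -0.05 for T cell markers, and 2 B cell markers were called. With replicates 1 and 2 only, the endothelial median was -0.33 and 3 neutrophil and mast cell markers were called. The mean of a gene's probe sets gave -1.13 for class I and -1.35 for costimulation. Leaving out 1 array at a time gave -0.48 to -0.28 for the chemokine median and 3 to 6 called neutrophil and mast cell markers. With replicates 3 and 4 only, 2 values changed sign: Nos2 in C57epi.1 (0.08, not called) and the change of Lbp between supernatant and media (-1.15, limma adjusted p = 0.0107). The cause of these changes was not tested.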
